A study of Mus musculus with 6 samples.

Results

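The Zfp genes are the mouse genes whose symbols are Zfp followed by a number, a naming series given to proteins with zinc fingers. They were taken from an expression table of splenic CD3+ T cells by symbol alone, leaving out Zfp36, so the naming rule used no expression value. The table itself appears to hold only genes that differed between the groups compared here. The set was also chosen with earlier results of these data known. The table held 219 such genes among 8468 genes. Of these, 133 reached 1 FPKM (fragments scaled to gene length and to the reads of the library) in at least 3 of the 6 libraries and were tested, and 86 did not and are described from their reads. RefSeq (GRCm38.p6) lists 396 protein-coding Zfp symbols other than Zfp36, and those outside the table were not analysed here. The allo-HSCT group had 3 libraries of CD3+ T cells from spleens of Balb/c hosts that had received haematopoietic stem cell transplants (HSCT) from C57BL/6 donors, the strain mismatch in which graft-versus-host disease is studied. The syn-HSCT group had 3 libraries of the same cells from Balb/c hosts transplanted from Balb/c donors. All 6 libraries therefore came from transplanted hosts, and none came from an untreated mouse. The labels give no age, no time after transplantation and no statement that each library was a separate animal, so the p-values below measure the spread between these libraries, which may be technical. Donor strain and type of transplant cannot be told apart in this design.

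A zinc finger is a short protein fold held by a zinc ion. In the C2H2 type the ion is gripped by a pair of cysteines and a pair of histidines, and arrays of such fingers read DNA sequence. Many mammalian C2H2 proteins also carry a KRAB box, which recruits the corepressor Trim28 (KAP1) and, through it, histone methyltransferases and heterochromatin proteins to silence endogenous retroviruses and other targets. The CCCH type of finger binds RNA, and its members in this naming series, Zfp36l1 and Zfp36l2, bind AU-rich stretches of messenger RNAs and speed their decay, in T cells among others.

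The 2 finger types and the KRAB box are shown here because they are the features by which the genes are grouped below. The stretch labelled KRAB box is only the part matched by the KRAB pattern, residues 14 to 28 of the Zfp169 protein. Each stretch is coding sequence in the GENCODE M21 annotation of GRCm38, read 5′ to 3′ on the coding strand, and capitals mark the codons of the fixed residues (cysteines and histidines of a finger, the matching residues of the KRAB pattern). Zfp287 was the tested member with the largest rise, Zfp169 a riser with both a KRAB box and fingers, Zfp422 and Zfp367 a pair of large falls, and Zfp36l2 the member with the highest level. They lie at chr11:62714916-62714978 (Zfp287, minus strand), chr13:48490813-48490875 (Zfp169 finger, minus strand), chr13:48498856-48498900 (Zfp169 KRAB box, minus strand), chr6:116626806-116626868 (Zfp422, minus strand), chr13:64145534-64145596 (Zfp367, minus strand) and chr17:84186668-84186727 (Zfp36l2, minus strand).
Zfp287 C2H2 finger: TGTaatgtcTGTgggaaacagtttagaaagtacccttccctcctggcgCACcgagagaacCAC
Zfp169 C2H2 finger: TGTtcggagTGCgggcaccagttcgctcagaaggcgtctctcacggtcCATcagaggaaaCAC
Zfp422 C2H2 finger: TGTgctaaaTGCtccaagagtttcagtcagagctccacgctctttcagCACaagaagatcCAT
Zfp367 C2H2 finger: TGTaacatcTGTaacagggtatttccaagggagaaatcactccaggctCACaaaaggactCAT
Zfp169 KRAB box: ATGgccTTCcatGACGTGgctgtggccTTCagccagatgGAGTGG
Zfp36l2 CCCH finger: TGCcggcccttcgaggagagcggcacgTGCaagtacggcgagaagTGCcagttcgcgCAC
The 4 C2H2 stretches have the same spacing between the capitalised codons. The search pattern fixed this spacing except between the histidines, where it allowed 3 or 4 residues. The CCCH stretch has 3 cysteine codons before a single histidine codon, as its pattern sets.

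Library totals recovered from the FPKM steps were 16330845 to 17143498 reads in allo-HSCT and 15642385 to 17524496 reads in syn-HSCT, and the genes of the table held 42.15% to 45.5% of them. All 11 of 11 T cell markers were called higher, with summed levels of 2033 to 2148 FPKM in allo-HSCT libraries against 1147 to 1212 FPKM in syn-HSCT libraries. Of 11 macrophage and monocyte markers in the table, 2 were called higher and 9 lower, with sums of 582.9 to 815.1 FPKM in allo-HSCT and 1922 to 2515 FPKM in syn-HSCT, and none of them was at 0 in every library. These counts, and those of other markers below, stand beside 47.9% called higher and 45.8% lower over all genes tested. Markers of these and other cells therefore moved with the groups, and their part in the results below was not tested. In bulk RNA, fewer cells of a type and less RNA per cell cannot be told apart.

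Most tested Zfp genes rose in allo-HSCT T cells, and most rises were small. Among the 133 tested members, 96 were higher in allo-HSCT (72.18%), 24 were lower (18.05%) and 13 passed in neither direction, by limma at an adjusted p under 0.05 over all 5460 genes tested. The same test called 47.9% of all genes tested higher and 45.8% lower, and 93.7% in either direction. Of the tested members, 6 reached 1 FPKM only in the 3 allo-HSCT libraries and 2 only in the 3 syn-HSCT libraries, so they entered the test through the group where they are high, and the counts are a description. With no filter and limma voom on recovered reads, all 219 members were tested, of which 113 were called higher (51.6%) and 49 lower (22.37%), beside 37.3% and 37.7% of all 8468 genes. The members' median log2 fold change on log2(FPKM + 1) in the filtered fit was 0.285, beside 0.2 over all genes tested. Among members called higher, the median ratio of mean FPKM was 1.345, and among those called lower the median ratio of syn-HSCT to allo-HSCT was 1.637. Over all genes these ratios were 1.394 and 1.58.

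Large changes were few among them on log2(FPKM + 1), a scale that understates change at low levels. There Zfp287 was the only tested member called with a log2 fold change of at least 1, where 3.74% of all genes tested passed. Zfp608 and Zfp422 were the 2 members at -1 or less, where 7.91% passed. Tested members had a lower median level than all genes tested, at 4.159 FPKM against 8.96 FPKM. With limma voom and no filter, further tested members went past these cuts. Among them were Zfp366 and Zfp169, at 1.152 and 1.047, and Zfp934 and Zfp991, at -1.351 and -1.195. The part of the scale in the difference from all genes was not tested. The libraries of the groups did not overlap for 97 members with allo-HSCT above (46.2% of all genes tested) and for 24 with allo-HSCT below (44.8%). The table appears to hold only genes that differed, and it reaches smaller rises than falls. Adjusted p-values throughout were computed over the genes of this table alone, so they may understate false calls. In the 4825 genes with a mean above 100 reads, the log2 ratios of mean FPKM left a gap from -0.37 to 0.21, and in the 122 such members the gap ran from -0.39 to 0.21. With an equal cut of a 1.3-fold ratio of mean FPKM in both directions, chosen after seeing this gap, 65 of 133 tested members were called higher and 24 lower. The same cut called 32.1% of all genes tested higher and 45.4% lower.

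**Figure D1:**
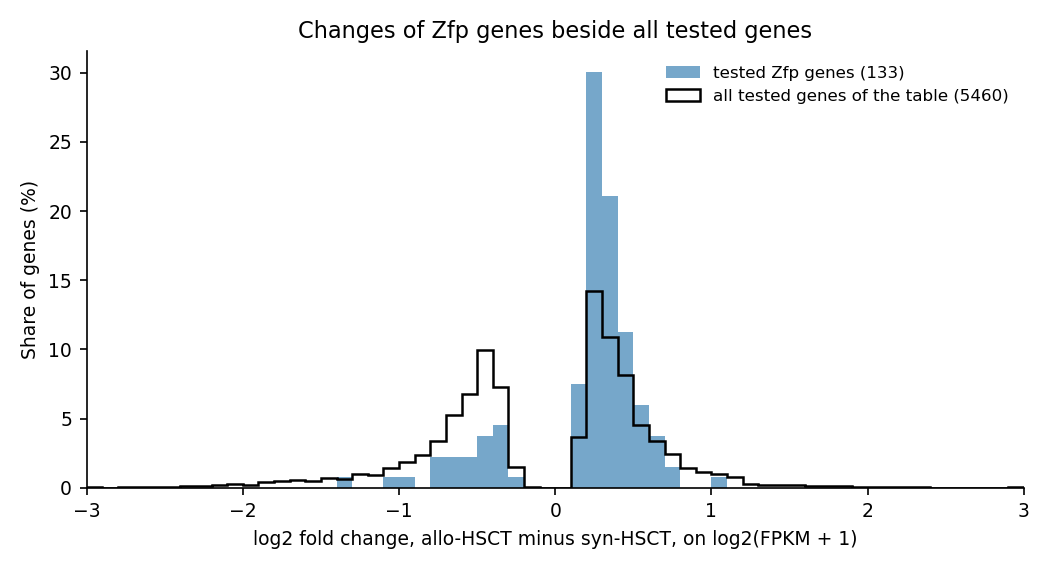
The histogram gives the share of genes (%) by log2 fold change of allo-HSCT minus syn-HSCT on log2(FPKM + 1), filled for the 133 tested Zfp genes and outlined for all 5460 tested genes. The filled bars lie mostly right of 0 at small rises, and both distributions leave a gap around 0 because the table lacks genes with small changes.

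**Figure D2:**
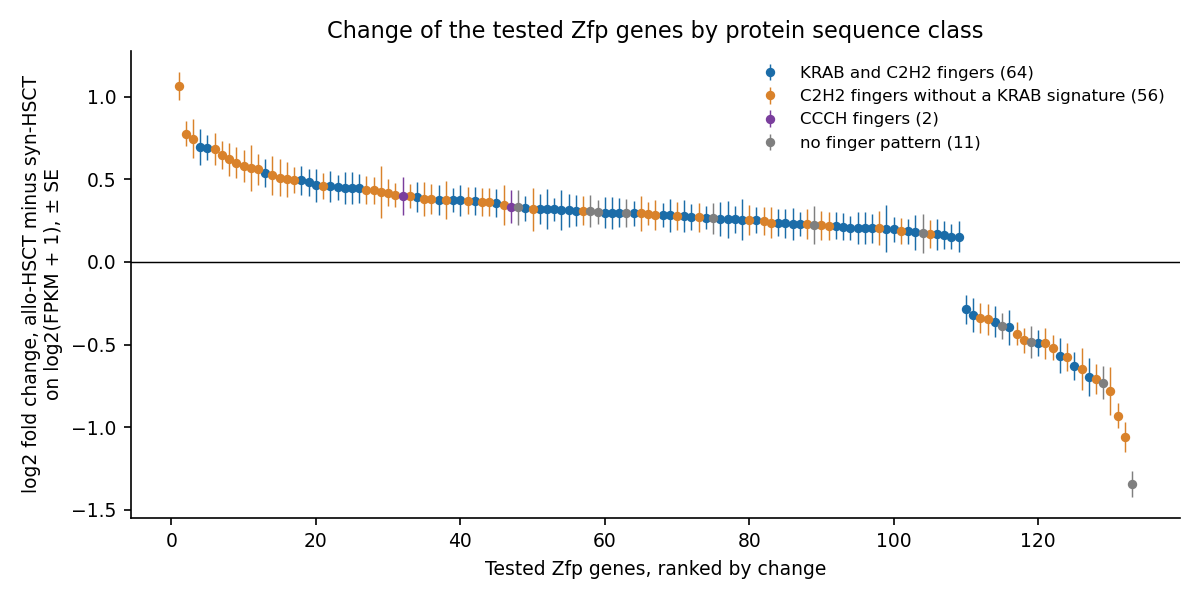
Each point is 1 of the 133 tested Zfp genes, ranked by its log2 fold change (vertical axis, allo-HSCT minus syn-HSCT, ± SE) and coloured by protein sequence class. The 109 positive changes are mostly under 0.5, Zfp287 stands at the left end with 1.06, and Zfp608 stands at the right end with -1.34.

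The largest rises and falls described from here on were drawn from called members whose groups do not overlap. That separation was therefore a condition of the choice. Zfp287, a protein with 14 C2H2 fingers, had the largest rise among tested members. It had 4.20, 4.67 and 5.07 FPKM in the 3 allo-HSCT libraries, against 1.73, 1.77 and 1.57 FPKM in the 3 syn-HSCT libraries. Every allo-HSCT library lay far above every syn-HSCT library, and the means were 4.65 ± 0.44 FPKM and 1.69 ± 0.11 FPKM (SD, n = 3 each). The ratio was 2.74-fold and the log2 fold change 1.06 ± 0.08 (SE, limma adjusted p = 2.98e-06).

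Zfp507, with 9 C2H2 fingers, had 5.75, 6.27 and 6.23 FPKM in allo-HSCT against 3.11, 3.29 and 3.00 FPKM in syn-HSCT, a 1.94-fold rise (limma adjusted p = 1.29e-05). A share of 28.3% of its exon bases overlaps a gene on the other strand. Whether the counting used strand is not given in the sources used here, so reads of such partners cannot be told apart from its own. Zfp169, the KRAB and finger protein shown above, had 2.65, 2.89 and 2.92 FPKM in allo-HSCT against 1.44, 1.31 and 1.34 FPKM in syn-HSCT. Its libraries agreed closely within each group, and the rise was 2.07-fold (limma adjusted p = 2.35e-05).

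Other rises came with a wider spread within allo-HSCT. Zfp512b had 15.1, 20.6 and 19.6 FPKM in allo-HSCT against 9.57, 10.1 and 11.9 FPKM in syn-HSCT (1.75-fold, limma adjusted p = 0.00033). Zfp777, a KRAB protein, had 8.79, 11.6 and 11.6 FPKM against 6.36, 5.71 and 6.36 FPKM (1.73-fold, limma adjusted p = 0.00025). Zfp646, with 27 C2H2 fingers, had 14.4, 18.5 and 17.8 FPKM in allo-HSCT against 10.3, 9.69 and 10.2 FPKM in syn-HSCT (1.67-fold, limma adjusted p = 0.000151). In all of them allo-HSCT replicate 1 was the lowest of its group, and still above every syn-HSCT library, as the choice required.

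Zfp213 had 5.77, 5.30 and 5.52 FPKM in allo-HSCT against 2.79, 3.52 and 3.23 FPKM in syn-HSCT (1.74-fold, limma adjusted p = 0.000105), with 56.6% of its exon bases over a gene on the other strand. Zfp687, whose human counterpart forms a transcriptional regulator complex with ZNF592 and ZMYND8, had 7.88, 10.2 and 9.17 FPKM in allo-HSCT against 5.27, 5.34 and 6.00 FPKM in syn-HSCT (1.64-fold, limma adjusted p = 0.000307). Its partner Zfp592 had 19.2, 24.0 and 23.5 FPKM in allo-HSCT against 17.1, 16 and 17.2 FPKM in syn-HSCT (1.33-fold, limma adjusted p = 0.0036). Both partners rose, and the log2 fold change of Zfp592 was 0.22 once the trend with gene length was removed, against 0.38 with it. Zfp280b, Zfp526 and Zfp831 rose by ratios of 1.63, 1.67 and 1.64 (limma adjusted p from 0.00027 to 0.000384).

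Zfp366, known as DC-SCRIPT for its expression in dendritic cells, was among the lowest of the risers. It had 1.61, 1.82 and 1.15 FPKM in allo-HSCT against 0.969, 0.766 and 0.394 FPKM in syn-HSCT, a 2.15-fold rise (limma adjusted p = 0.00335). It passed the filter only through the allo-HSCT libraries, and the fit with no filter gave a log2 fold change of 1.15 (limma voom adjusted p = 0.00181). Replicate 3 was the lowest in both groups, and the groups did not overlap, as the choice required. The 5 dendritic cell markers went mostly the other way, with 1 called higher and 3 lower, and their sums were 10.19 to 13.46 FPKM in allo-HSCT and 25.07 to 25.54 FPKM in syn-HSCT. The part of dendritic cells in the Zfp366 result was not tested.

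**Figure D3:**
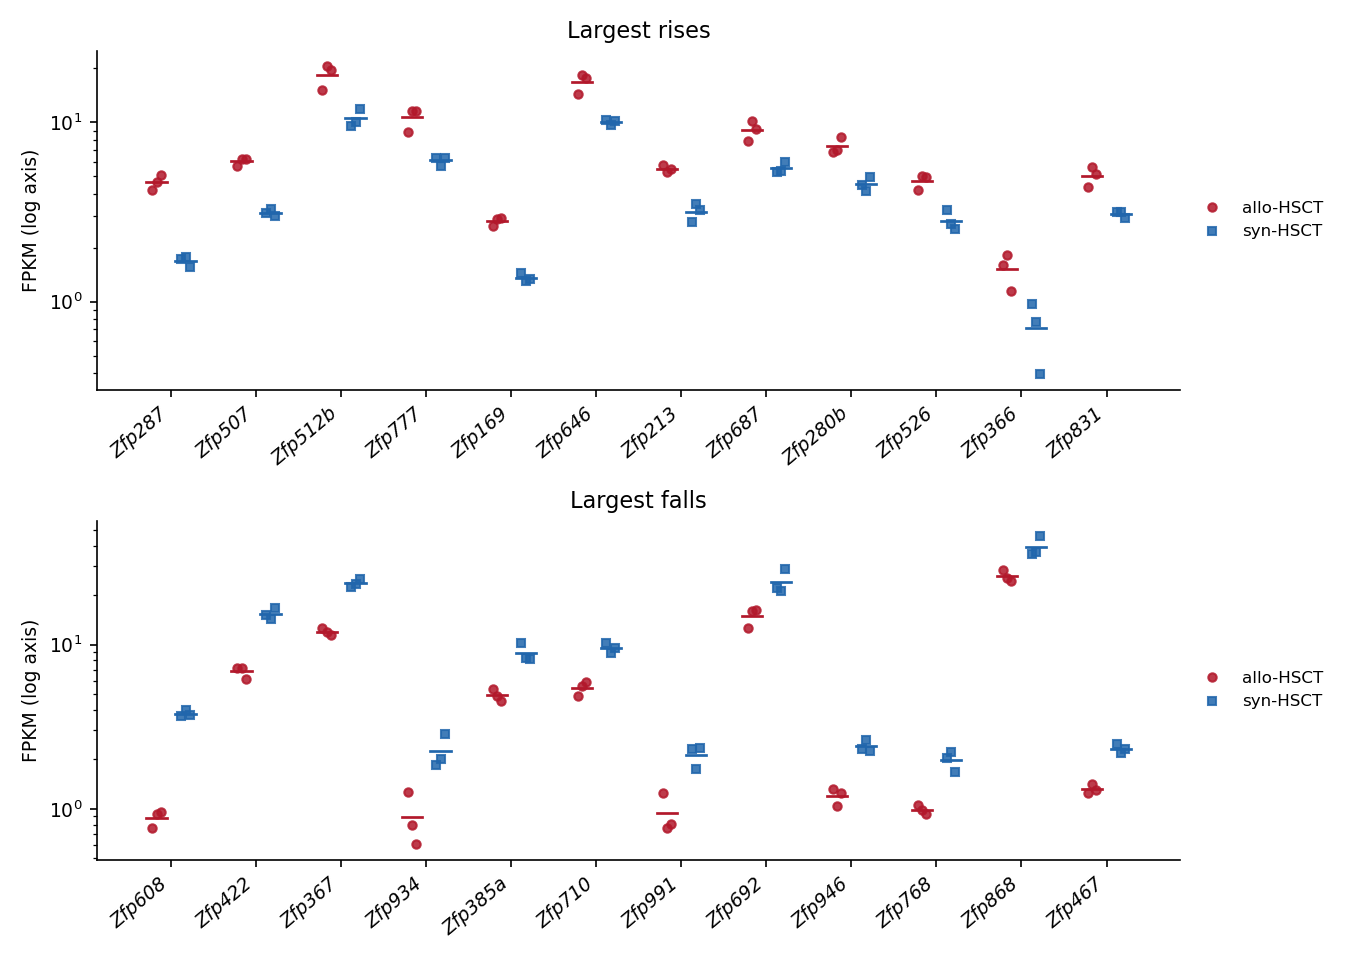
Points are FPKM values of single libraries on a log axis (circles allo-HSCT, squares syn-HSCT) and bars are group means, for the 12 largest rises (top) and the 12 largest falls (bottom) among called members whose groups do not overlap. Zfp287 separates most among the rises, with 4.20 to 5.07 FPKM in allo-HSCT and 1.57 to 1.77 FPKM in syn-HSCT, and Zfp608 among the falls, with 0.766 to 0.957 FPKM and 3.65 to 3.97 FPKM.

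Fewer members fell, and their median ratio was larger, in a table that reaches smaller rises than falls. Zfp608, described in mouse thymocytes as a repressor of the Rag1 and Rag2 recombinase genes, had 0.766, 0.929 and 0.957 FPKM in allo-HSCT against 3.65, 3.97 and 3.70 FPKM in syn-HSCT. Its means were 0.884 ± 0.103 FPKM and 3.77 ± 0.17 FPKM (SD, n = 3 each). All 3 allo-HSCT libraries stayed below 1 FPKM, and the fall was 4.27-fold with a log2 fold change of -1.34 ± 0.08 (SE, limma adjusted p = 3.95e-07). Because only the syn-HSCT libraries took it past the filter, the fit with no filter is given too, with a log2 fold change of -2.10 (limma voom adjusted p = 7.46e-10). The pattern searched for found no C2H2 finger in its protein.

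Zfp422, with 5 C2H2 fingers, had 7.18, 7.21 and 6.18 FPKM in allo-HSCT against 15.1, 14.4 and 16.7 FPKM in syn-HSCT, a 2.24-fold fall (log2 fold change -1.06 ± 0.09, SE, limma adjusted p = 4.16e-06). Zfp367, a DNA-binding factor with 1 finger matching the pattern, had 12.6, 11.9 and 11.4 FPKM in allo-HSCT against 22.5, 23.5 and 25 FPKM in syn-HSCT (1.98-fold lower, limma adjusted p = 3.73e-06). In both genes each group was narrow and the groups were far apart.

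Zfp385a, known in mouse as Hzf, a p53-induced protein needed for normal platelet formation, had 5.38, 4.88 and 4.56 FPKM in allo-HSCT against 10.2, 8.30 and 8.16 FPKM in syn-HSCT (1.80-fold lower, limma adjusted p = 0.000113). Zfp710 had 4.85, 5.60 and 5.89 FPKM against 10.2, 8.87 and 9.56 FPKM (1.75-fold lower, limma adjusted p = 6.8e-05). Zfp692 had 12.7, 15.9 and 16.3 FPKM in allo-HSCT against 22.2, 21.3 and 28.7 FPKM in syn-HSCT (1.61-fold lower, limma adjusted p = 0.00102). None of these overlapped between groups, which was a condition for being listed among the largest falls.

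Low-level falls included Zfp946, a KRAB protein, with 1.32, 1.04 and 1.24 FPKM in allo-HSCT against 2.32, 2.63 and 2.25 FPKM in syn-HSCT (2.0-fold lower, limma adjusted p = 9.99e-05). Zfp768 had 1.05, 0.986 and 0.927 FPKM in allo-HSCT against 2.03, 2.21 and 1.68 FPKM in syn-HSCT (2.0-fold lower, limma adjusted p = 0.000207). Zfp467, which in mouse mesenchymal cells favours fat over bone formation, had 1.24, 1.41 and 1.31 FPKM against 2.47, 2.19 and 2.31 FPKM (1.76-fold lower, limma adjusted p = 0.000175). At such levels the log2(FPKM + 1) scale understates the change, which is why the ratios are given beside it. With voom on the recovered reads, the log2 fold changes of these 3 genes were -1.0, -0.98 and -0.81.

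Zfp934 and Zfp991 fell as well, but their reads are uncertain. Zfp934 had 1.26, 0.795 and 0.609 FPKM in allo-HSCT against 1.86, 2.0 and 2.87 FPKM in syn-HSCT (2.52-fold lower, limma adjusted p = 0.000757), and 41.6% of the 50-base stretches of its transcripts also occur in other genes. Zfp991 had 1.24, 0.766 and 0.804 FPKM against 2.32, 1.75 and 2.33 FPKM (2.28-fold lower, limma adjusted p = 0.000374), with 84.9% shared. Such reads can be assigned to either copy.

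At the highest levels stood the RNA-binding CCCH proteins. Zfp36l2 had 344, 453 and 448 FPKM in allo-HSCT against 333, 307 and 298 FPKM in syn-HSCT, with means of 415 ± 61.9 FPKM and 313 ± 17.8 FPKM (SD, n = 3 each). The lowest allo-HSCT library was just above the highest syn-HSCT library, and the rise was 1.33-fold (log2 fold change 0.40 ± 0.11, SE, limma adjusted p = 0.00819). Zfp36l1 had 133, 171 and 163 FPKM in allo-HSCT against 118, 122 and 127 FPKM in syn-HSCT (1.27-fold, limma adjusted p = 0.00982), with 55.9% of its exon bases over a gene on the other strand. Zfp36 (tristetraprolin), the relative that the naming rule leaves out, went the other way, with 353, 451 and 456 FPKM in allo-HSCT against 872, 859 and 931 FPKM in syn-HSCT (2.11-fold lower, limma adjusted p = 1.69e-05).

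Below them, Zfp868, a KRAB protein, had 28.5, 25.4 and 24.5 FPKM in allo-HSCT against 35.6, 36.8 and 45.7 FPKM in syn-HSCT (1.51-fold lower, limma adjusted p = 0.00074). Zfp281, a regulator of pluripotency genes in stem cells, had 30.8, 32.5 and 33.3 FPKM in allo-HSCT against 21.2, 24.0 and 24.4 FPKM in syn-HSCT (1.39-fold, limma adjusted p = 0.000488). The groups were apart in both genes, in opposite directions. Zfp740 rose by a ratio of 1.22 (limma adjusted p = 0.0116). Zfp414 rose by 1.25 (limma adjusted p = 0.0128), with 25% of its 50-base stretches shared and a limma adjusted p of 0.0705 without syn-HSCT replicate 2. Zfp706 was 1.41-fold lower (limma adjusted p = 0.000267) with 38.9% shared. Zfp106, an RNA-binding protein needed by mouse motor neurons and muscle, was 1.24-fold higher (limma adjusted p = 0.00713), a call lost once the trend with gene length was removed (limma adjusted p = 0.183).

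Members with a described role in chromatin and lymphocytes moved mostly by small amounts. Zfp318, which in mouse B cells allows IgD to be made from long transcripts, had 4.75, 4.94 and 5.09 FPKM in allo-HSCT against 3.69, 3.08 and 3.41 FPKM in syn-HSCT (1.45-fold, limma adjusted p = 0.000779). The 3 B cell markers tested were called higher too, with summed levels over the 5 in the table of 14.77 to 16.16 FPKM in allo-HSCT and 8.535 to 9.409 FPKM in syn-HSCT, and their part in this result was not tested. Zfp335, which mouse T cells need for their maturation, had 15.5, 21.1 and 18.5 FPKM in allo-HSCT against 15.5, 15.6 and 16 FPKM in syn-HSCT. The groups overlapped because allo-HSCT replicate 1 lay among the syn-HSCT values (limma adjusted p = 0.0807), and without that library the limma adjusted p was 0.00137.

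Among the silencing factors, Zfp445, a KRAB protein that keeps genomic imprints, had 17.5, 17.4 and 16.4 FPKM in allo-HSCT against 13.9, 14.4 and 13.9 FPKM in syn-HSCT (1.22-fold, limma adjusted p = 0.00519). The call was lost once the trend with gene length was removed (limma adjusted p = 0.258). Zfp809, a KRAB protein that silences murine leukaemia virus and related retroviruses in mouse embryonic cells, had 7.90, 7.53 and 7.81 FPKM in allo-HSCT against 6.26, 6.93 and 6.69 FPKM in syn-HSCT. Its 1.17-fold rise was the smallest among the named members called (limma adjusted p = 0.0276), and it passed in neither direction in 5 alternatives, among them those without allo-HSCT replicate 3 (limma adjusted p = 0.0782), syn-HSCT replicate 1 (0.102) or syn-HSCT replicate 3 (0.0503).

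Zfp143, an activator of small nuclear RNA and many protein-coding promoters, had 13.1, 11 and 11.8 FPKM in allo-HSCT against 9.20, 8.99 and 8.81 FPKM in syn-HSCT (1.33-fold, limma adjusted p = 0.00198). Zfp652, whose human counterpart works with the corepressor CBFA2T3, had 13.1, 15.3 and 13.8 FPKM in allo-HSCT against 9.63, 9.74 and 9.56 FPKM in syn-HSCT (1.46-fold, limma adjusted p = 0.000279). Zfp292 rose by a ratio of 1.36 (limma adjusted p = 0.00118), and with the length trend removed its log2 fold change was 0.23, against 0.42 with it. In these genes no allo-HSCT library reached down to the syn-HSCT values. Zfp326, part of a complex that couples transcript elongation to splicing in human cells, had 9.68, 10.2 and 10.3 FPKM in allo-HSCT against 12.4, 14 and 14 FPKM in syn-HSCT (1.34-fold lower, limma adjusted p = 0.00125).

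Weaker calls in the same group need their limits beside them. Zfp217, counterpart of a human breast cancer gene that works with corepressors, was 1.22-fold higher (limma adjusted p = 0.018). That call was lost with the length trend removed (limma adjusted p = 0.384) and without allo-HSCT replicate 3 (0.064), syn-HSCT replicate 1 (0.0738) or syn-HSCT replicate 2 (0.055). Zfp346, which binds double-stranded RNA, was 1.23-fold higher (limma adjusted p = 0.0212), and the call was lost without allo-HSCT replicate 3 (0.0809) or syn-HSCT replicate 2 (0.106). The KRAB genes Zfp386 and Zfp382 were 1.26-fold and 1.32-fold higher (limma adjusted p = 0.0213 and 0.00458), and neither kept its call with the length trend removed (limma adjusted p = 0.13 and 0.139). Zfp386 also lost it without syn-HSCT replicate 1 (0.0558) or syn-HSCT replicate 3 (0.0593), and its log2 fold change was 0.17 without allo-HSCT replicate 1, against 0.28 with it. Zfp53, another KRAB gene, was 1.28-fold higher (limma adjusted p = 0.00265). Zfp90, also a KRAB gene, was 1.31-fold lower (limma adjusted p = 0.0102), with 79.5% of its exon bases over a gene on the other strand and a limma adjusted p of 0.0701 after quantile normalization. Zfp395 had 6.28, 8.99 and 8.06 FPKM in allo-HSCT against 6.77, 6.66 and 5.97 FPKM in syn-HSCT and did not pass (limma adjusted p = 0.087), but did so without allo-HSCT replicate 1 (0.00195).

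Grouped by protein sequence, both C2H2 classes had more members called higher than lower, and the members with no finger pattern were split. Of 123 members in the table with the KRAB pattern and C2H2 fingers, 64 were tested, of which 47 were called higher and 8 lower, with a median log2 fold change of 0.27. Of 77 members with C2H2 fingers and no KRAB pattern, 56 were tested, of which 42 were called higher and 12 lower, with a median of 0.332. Of 16 members with no finger pattern, 11 were tested, of which 5 were called higher and 4 lower. The 2 CCCH genes were both called higher. Over all genes tested the shares were 47.9% and 45.8%, and no test was made between classes. The KRAB members held 3 to 33 matches to the C2H2 pattern with a median of 12, and the other C2H2 members 1 to 33 with a median of 9. Fingers of another spacing are not in these numbers, so members with no finger pattern may still carry fingers. Across the 133 tested members the number of fingers ran with the mean FPKM at a Spearman rho of -0.43 and with the log2 fold change at 0.01, both as descriptions across genes, which share the same 6 libraries.

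KRAB genes and the other C2H2 genes differed in base composition, and so did their values in allo-HSCT replicate 1. Median GC content was 41.66% for tested KRAB members, 51.9% for other C2H2 members and 50.13% for all genes with an annotated sequence. On log2(FPKM + 1), the KRAB members in allo-HSCT replicate 1 lay a median of 0.107 above the mean of allo-HSCT replicates 2 and 3, with 46 of 64 above it. The other C2H2 members lay at a median of -0.131, with 17 of 56 above. Across the 133 tested members, GC content and this difference had a Spearman rho of -0.68, and across 5331 genes of the table -0.51, as descriptions across genes of 1 set of libraries. Without allo-HSCT replicate 1, 127 members were tested, of which 80 were called higher and 24 lower, with a median log2 fold change of 0.289. Among KRAB members 33 of 60 were then called higher and 8 lower, and among other C2H2 members 38 of 54 were higher and 12 lower. Over all genes that fit called 2538 higher and 2492 lower of 5292. With a trend on GC content removed from each library, 107 members were called higher and 22 lower, beside 2765 and 2405 of 5331 genes.

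**Figure D4:**
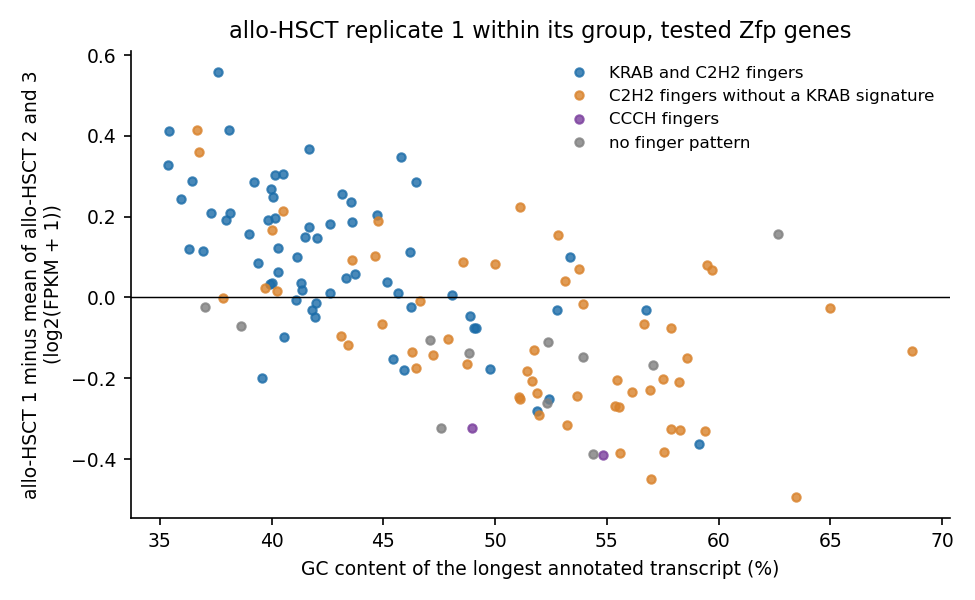
Each point is a tested Zfp gene, with the GC content (%) of its longest annotated transcript on the horizontal axis and, on the vertical axis, the log2(FPKM + 1) of allo-HSCT replicate 1 minus the mean of allo-HSCT replicates 2 and 3. Points fall from left to right (Spearman rho -0.68), and most KRAB genes sit at low GC above the line at 0.

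Many Zfp genes lie next to each other in the genome, as tandem copies do. In the RefSeq order of protein-coding genes, 93 of the 219 members stood directly beside another member, in 36 runs of 2 to 6 members. Of these, 52 were tested, of which 42 were called higher and 4 lower, with a median log2 fold change of 0.3. Of the 126 members with no such neighbour, 81 were tested, of which 54 were called higher and 20 lower, with a median of 0.272. These counts stand beside 47.9% higher and 45.8% lower over all genes tested, as do those on shared sequence further on. Among the 17 runs with at least 2 tested members, every tested member was called higher in 10, such as Zfp777, Zfp956 and Zfp746, and both directions were called in 3. In those 3, Zfp934 was lower beside Zfp935 higher, Zfp771 lower beside Zfp553 higher, and Zfp768 lower beside Zfp747 and Zfp764 higher. Neighbours can also share sequence. Of the 50-base stretches of Zfp935, 100% also occur in other genes, and 100% of its exon bases overlap a gene on the same strand. Its reads cannot be told apart from theirs. The shares of stretches were 36.9% for Zfp747, 27.6% for Zfp764 and 1.52% for Zfp553. Of 45 members with at least 10% of their 50-base stretches in other genes, 22 were tested, of which 14 were called higher and 5 lower, and of 173 with less, 111 were tested, of which 82 were called higher and 19 lower.

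The partners through which KRAB proteins act did not all move with them. Trim28, the corepressor that KRAB boxes bind, had 81.6, 105 and 103 FPKM in allo-HSCT against 136, 132 and 147 FPKM in syn-HSCT. Every allo-HSCT library was below every syn-HSCT library, and the fall was 1.43-fold (log2 fold change -0.52 ± 0.10, SE, limma adjusted p = 0.00123). After quantile normalization its log2 fold change was -0.29 and missed the threshold (limma adjusted p = 0.0501). Setdb1, the histone methyltransferase of that pathway, was not analysed here.

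Of 24 corepressor and heterochromatin genes in the table, 23 were tested, of which 15 were called higher and 7 lower, beside 47.9% and 45.8% of all genes tested. With the length trend removed 8 were higher and 7 lower, beside 2257 and 2075 of all 5460 genes in that fit. Mta1 and Gatad2a, subunits of the NuRD deacetylase complex, were 1.58-fold and 1.43-fold higher (limma adjusted p = 0.000375 and 0.000509). Resf1, a silencer of retroelements in mouse embryonic stem cells, was 1.48-fold higher (limma adjusted p = 7.76e-05). Dnmt3b, a DNA methyltransferase that sets new marks, had 3.16, 3.83 and 3.63 FPKM in allo-HSCT against 5.90, 5.81 and 6.23 FPKM in syn-HSCT (1.69-fold lower, limma adjusted p = 0.000102). Uhrf1, which brings the maintenance methyltransferase to replicated DNA, averaged 33.5 ± 3.09 FPKM in allo-HSCT and 49.4 ± 0.426 FPKM in syn-HSCT (SD, n = 3 each, 1.47-fold lower, limma adjusted p = 0.000201).

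Other zinc finger families of the table are described by their counts, beside 47.9% called higher and 45.8% lower over all genes tested, with no test of a difference from the Zfp genes. Of 24 Zbtb genes (BTB domain and fingers), 22 were tested, of which 13 were called higher and 5 lower. Of 12 Zscan and Zkscan genes (SCAN domain and fingers), 9 were tested, of which 8 were called higher and 0 lower by limma. All 9 had a positive log2 fold change, and Zscan20 passed the filter only through the allo-HSCT libraries. Those below the filter went the other way with limma voom and no filter. Their log2 fold changes were -0.834 for Zscan18 (limma voom adjusted p = 0.000588), -1.276 for Zkscan4 (0.00987) and -0.45 for Zscan30 (0.123). Of 7 Zc3h genes (CCCH fingers), 6 were tested, of which 5 were called higher and 1 lower. With the length trend removed, 11 Zbtb genes were called higher and 5 lower, 5 Zscan and Zkscan genes higher and 0 lower, and 3 Zc3h genes higher and 1 lower, beside 2257 higher and 2075 lower of 5460 genes.

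Among the 86 members below the level filter, calls were split between the directions. With voom, the limma method for read counts, on the recovered reads and no filter, 21 of them were called higher and 25 lower, beside 17.8% and 24.0% of the 3008 genes of the table below the filter. Of the 86, 59 had the KRAB pattern and fingers and 21 had fingers without it. Their median was 143.5 reads over all 6 libraries, so counting error limits what can be seen. Close to the filter, the FPKM reached by 3 libraries was 1.004 FPKM for Zfp329 and 1.013 FPKM for Zfp763, which were tested, and 0.9877 FPKM for Zfp407 and 0.9698 FPKM for Zfp59, which were not.

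Several large falls were found here. Zfp503, a factor of striatal development also called Nolz1, had 4, 6 and 3 reads in allo-HSCT against 57, 47 and 37 reads in syn-HSCT (log2 fold change -3.34 ± 0.45, SE, limma voom adjusted p = 6.49e-06). Zfp521, a regulator of early haematopoietic and neural progenitors, had 6, 8 and 9 reads in allo-HSCT against 61, 77 and 58 reads in syn-HSCT (-3.05 ± 0.34, SE, limma voom adjusted p = 9.81e-07). In both, every allo-HSCT library held fewer than 10 reads. Zfp184, a KRAB gene, had 11, 5 and 7 reads in allo-HSCT against 52, 55 and 55 reads in syn-HSCT (-2.83 ± 0.36, SE, limma voom adjusted p = 3.87e-06). Zfp704 had 65, 48 and 42 reads against 204, 236 and 153 reads (-1.95 ± 0.19, SE, limma voom adjusted p = 2.13e-07). Apart from the macrophage and dendritic cell lists given above, sums of granulocyte markers were lower in allo-HSCT, at 847.2 to 986.9 FPKM against 1647 to 1668 FPKM in syn-HSCT, although 4 of the 8 tested were called higher and 4 lower. Sums of the 4 NK cell markers were 155.9 to 222.6 FPKM in allo-HSCT against 477.0 to 533.9 FPKM in syn-HSCT, with 2 called higher and 2 lower. The part of these cells in the falls was not tested.

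Rises below the filter were fewer among large changes, with 6 members called at a log2 fold change of at least 1 and 14 at -1 or less, beside 12.9% and 18.9% of the genes below the filter. Zfp369, a KRAB gene, had 308, 351 and 271 reads in allo-HSCT against 152, 150 and 113 reads in syn-HSCT (1.14 ± 0.13, SE, limma voom adjusted p = 1.33e-06). Zfp987 had 22, 16 and 11 reads in allo-HSCT and 0 reads in each syn-HSCT library. That is at least 16.09-fold higher against a floor of 3 reads over the syn-HSCT group. This floor covers counting error in the syn-HSCT group only. The syn-HSCT donors were Balb/c and the allo-HSCT donors C57BL/6. A strain difference in the gene or in read mapping cannot be told apart from a change in expression. For that gene 80.6% of the 50-base stretches also occur in other genes, so its reads are uncertain. Zfp516, a factor of brown fat formation in mouse, had 168, 187 and 151 reads in allo-HSCT against 376, 375 and 254 reads in syn-HSCT (-0.99 ± 0.14, SE, limma voom adjusted p = 1.06e-05).

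**Figure D5:**
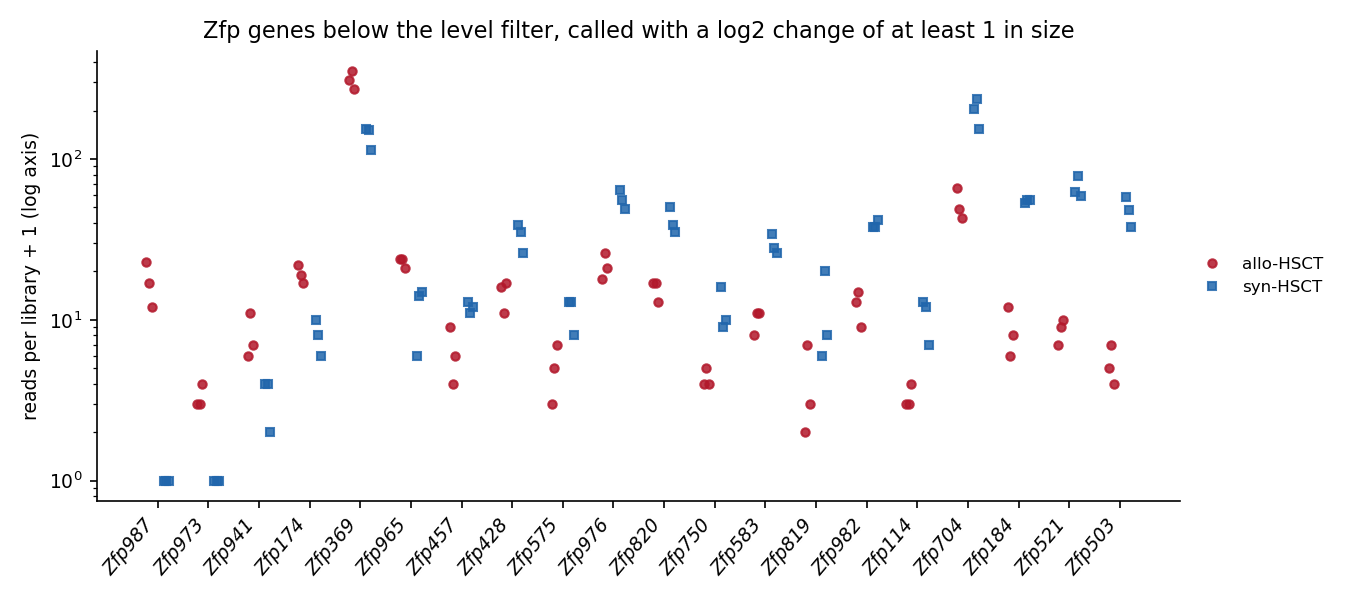
Points are reads per library plus 1 on a log axis (circles allo-HSCT, squares syn-HSCT) for the 20 Zfp genes below the level filter that voom called with a log2 fold change of at least 1 in size, ordered from the largest rise to the largest fall. The 6 rises are on the left, with Zfp987 at 0 reads in all 3 syn-HSCT libraries, and the 14 falls on the right end with Zfp503.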

How the data were processed

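RNA of splenic CD3+ T cells was sequenced from 3 allo-HSCT and 3 syn-HSCT libraries. Per the labels' protocols, spleen T cells were isolated by kit, and NEB kits served for ribosomal RNA removal and library building. The submitters' processing notes name limma, with no role or version. No source used here gives the aligner, counter, genome build or strand setting. No unit is named in the deposited table. From its values it was read as FPKM that the authors computed: with gene lengths, whole reads could be recovered for 8468 of 8468 genes (100% within a tolerance of 5e-05, largest distance 2.6e-05), using library totals found from 1036 genes with 1 transcript in GENCODE M21. "Reads" stands for reads or read pairs, and a recovered length can be too short by a common factor. The median was 165 reads per gene and library. No columns of values were left unmapped, and no row lacked a gene.

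The 5460 genes that reached 1 FPKM in 3 libraries entered limma 3.58.1 (R 4.3.3) as log2(FPKM + 1), without covariates and with trended variance, with Benjamini-Hochberg adjustment over all of them and a threshold of 0.05. Folds are ratios of mean FPKM. With 3 libraries a group, exact permutation reaches p = 0.1 at best, so it was not run for single genes. Members and gene lists were chosen with earlier results of these data known. Named were the 10 tested members with the highest mean, the 12 largest rises and 12 largest falls among called members whose groups do not overlap, members of a list with described roles, and the 3 corepressors with the largest changes in each direction with Trim28. Members below the filter, neighbours and the Zfp36 relative were named after their values were seen. Protein classes were read by patterns from proteins translated from GENCODE M21 (a planned RefSeq protein table was not used here): C2H2 (cysteines 2 apart, histidines 3 or 4 apart, 12 between), CCCH, and a KRAB pattern of 7 fixed residues, of which 6 had to match. That KRAB pattern occurred in 9 of 19124 genes outside zinc finger names. How many KRAB boxes it misses was not measured, so members without the pattern may still carry one. The C2H2 pattern may likewise miss fingers of another spacing, so numbers of fingers are numbers of matches. Classes were found for 218 of 219 members. Shared 50-base stretches and exon overlap come from the same annotation, neighbours from RefSeq GRCm38.p6.

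Alternatives were another pseudocount, other filters, 2 scalings between libraries, removal of length or GC trends, library quality weights, limma voom on recovered reads, a replicate block and leaving out each library. The GC trend, voom without a filter and the 1.3-fold cut were added after seeing the data.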

Additional observations from a re-analysis of the deposited data

How the results depend on the processing

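More members were called higher than lower under every alternative run. With log2(FPKM + 0.1) the members' median log2 fold change was 0.352, with library medians set equal 0.336, after quantile normalization 0.373, with voom 0.365 and with the GC trend removed 0.37. Removing the trend with gene length gave a members' median of 0.229 and a median over all genes tested of 0.088, against 0.2 before. In that fit 70 members were called higher and 23 lower, beside 2257 and 2075 of 5460 genes. With no filter, 104 members were called higher and 50 lower with a median of 0.198, and with voom and no filter 49 were lower with a median of 0.349, since 219 members were then tested. With a mean of at least 5 FPKM, 43 of 56 members were called higher and 9 lower with a median of 0.309, beside 1883 higher and 1604 lower of 3595 genes tested. Leaving out each library in turn gave 71 to 82 members higher, 21 to 24 lower and a median of 0.274 to 0.297.

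Of 47 named members, 45 were called, 36 of them in every alternative that tested them, and 0 changed sign. The 12 largest rises and 12 largest falls among them were picked as called and not overlapping in these same libraries. These counts are therefore a description and no independent support. Only 31 of the 47 were tested in all 17 alternatives, mostly because the others were below a mean of 5 FPKM, and 22 were called in all 17. The calls of Zfp809, Zfp217, Zfp386, Zfp346, Zfp106, Zfp382, Zfp414, Zfp445 and Zfp90 were lost in at least 1, and the cause was not tested. Values of calls that held moved by over 1.5 times for some low genes with voom, such as Zfp366, at 1.15 against 0.57, Zfp934 at -1.35 against -0.78 and Zfp991 at -1.20 against -0.70, and with the length trend removed for Zfp414, at 0.67 against 0.31, and Zfp318, at 0.26 against 0.43. Samples with the same replicate number deviated with correlations of -0.0217, -0.202 and 0.077, so the numbers are not taken as pairs. With the replicate block, 91 members were called higher and 24 lower, with a median of 0.285, and 2582 and 2523 genes of the table.

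The table holds only part of the genes, and shares of calls describe this table. Depth limits the members below the filter.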
